A study of Mus musculus with 24 samples.

Results

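The unfolded protein response and the integrated stress response were followed through a fixed list of 33 genes in mouse liver, of which 31 were measured on the arrays, out of 16139 genes measured in all. The list was chosen by name and not by measured values. It holds the sensors of the endoplasmic reticulum (ER), their transcription factors, ER chaperones, co-chaperones, disulfide isomerases, ER-associated degradation, protein translocation and export, and the targets of Atf4 and Ddit3. Pdia3 and Dnajb11 were not matched to a probe. Liver RNA of male C57BL/6N mice was labelled with Cy5 and hybridised on 24 2-channel Agilent arrays against a Cy3-labelled reference RNA, so every value is a log2 ratio of Cy5 over Cy3, and a difference between groups is a difference of these ratios. The groups were 10 days of ethanol diet followed by a binge of 5 g/kg (3 arrays), 8 weeks of ethanol diet alone (5 arrays), 8 weeks of ethanol diet followed by a binge of 5 g/kg (5 arrays) and 8 weeks of ethanol diet with binges of 5 g/kg given 2 times per week (4 arrays). Their references were mice pair-fed for 8 weeks (4 arrays) and for 10 days (3 arrays). All groups shared strain, sex and tissue. A field of the Cy3 channel calls the reference an assorted mouse RNA sold by a company and another field says liver, so its makeup is uncertain. The labels do not state that arrays of a group came from separate animals, so p-values measure the spread between these samples, which may be technical.

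Cells sense unfolded protein in the ER through the membrane proteins IRE1 (Ern1), PERK (Eif2ak3) and ATF6. IRE1 splices Xbp1 mRNA, and ATF6 is cleaved in the Golgi to a transcription factor; both raise chaperones and degradation factors that clear the ER. PERK phosphorylates the translation factor eIF2 alpha, which lowers general translation and favours the translation of ATF4, and kinases that sense amino acid shortage, haem shortage or viral RNA reach ATF4 by the same route. The hepatocyte secretes most plasma proteins, and its large ER makes the liver a tissue in which these genes are read out often, including after alcohol. The arrays measure mRNA only, so splicing of Xbp1, cleavage of Atf6 and phosphorylation were not read. In bulk liver, fewer cells of a type and less RNA per cell cannot be told apart.

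Sequences through which these transcription factors are known to act were looked for in the promoters of the genes, and the matches are shown as a description. The values that follow are not grouped by element. RefSeq promoter sequences (GRCm38.p6) running from 250 bases before to 50 bases after the start were matched for 29 of the 33 genes. These motifs were searched on both strands: the ER stress element (CCAAT, any 9 bases, CCACG), its second form (ATTGG, any base, CCACG), the core of the unfolded protein response element (TGACGTGG), and the core of the C/EBP-ATF response element (TGATG, any base, then AAT or AAC). The ER stress element was present in 9 of the 29 promoters (Calr, Canx, Creld2, Derl3, Dnajc3, Hsp90b1, Hspa5, Pdia6 and Syvn1), and in 39 of all 32851 promoters of the table (0.119%). The second form was in 2 of 29 (Dnajb11 and Herpud1) and in 0.0365% of all promoters. The unfolded protein response core was in Sec24d, and in 0.676% of all promoters. The C/EBP-ATF core was in Asns, Chac1 and Herpud1, and in 1.77% of all promoters. At least 1 of the 4 motifs was found in 14 of the 29 promoters. The other 15, among them those of Atf4, Ddit3, Xbp1, Eif2ak3, Edem1, Sec61b and Trib3, held none of these letters in this window. The genes were listed as members of this pathway, so the matches describe them and test nothing. Every match that lay before the start is given below in the direction of the gene, whether or not the gene passed a test, with the matched motif in capitals. Hspa5 is given with its whole upstream stretch, the others with 12 bases on each side.
Hspa5, chr2:34771840-34772089, plus strand: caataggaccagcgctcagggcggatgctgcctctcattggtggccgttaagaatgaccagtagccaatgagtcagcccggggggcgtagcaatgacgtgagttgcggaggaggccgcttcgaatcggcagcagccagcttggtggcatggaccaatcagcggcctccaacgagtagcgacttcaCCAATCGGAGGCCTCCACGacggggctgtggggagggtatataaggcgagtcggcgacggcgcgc
Creld2, chr15:88819508-88819550, plus strand: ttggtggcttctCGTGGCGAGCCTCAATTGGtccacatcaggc
Syvn1, chr19:6046520-6046562, plus strand: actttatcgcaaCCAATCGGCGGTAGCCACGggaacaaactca
Pdia6, chr12:17266479-17266521, plus strand: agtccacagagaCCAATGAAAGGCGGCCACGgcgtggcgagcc
Dnajc3, chr14:118937815-118937857, plus strand: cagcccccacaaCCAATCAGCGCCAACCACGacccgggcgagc
Calr, chr8:84847063-84847105, minus strand: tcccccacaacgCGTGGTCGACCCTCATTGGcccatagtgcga
Hsp90b1, chr10:86705626-86705668, minus strand: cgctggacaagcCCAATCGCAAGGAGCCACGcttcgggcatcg
Hsp90b1, chr10:86705521-86705563, minus strand: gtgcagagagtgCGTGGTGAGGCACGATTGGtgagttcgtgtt
Canx, chr11:50325788-50325830, minus strand: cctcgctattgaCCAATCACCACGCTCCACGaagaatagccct
Derl3, chr10:75893230-75893272, plus strand: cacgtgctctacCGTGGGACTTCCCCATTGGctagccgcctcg
Herpud1, chr8:94386365-94386399, plus strand: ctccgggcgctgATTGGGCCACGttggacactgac
Sec24d, chr3:123267458-123267489, plus strand: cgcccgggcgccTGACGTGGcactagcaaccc
Asns, chr6:7693212-7693244, minus strand: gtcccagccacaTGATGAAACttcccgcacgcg
Chac1, chr2:119351036-119351068, plus strand: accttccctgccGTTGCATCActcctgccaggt
Herpud1, chr8:94386304-94386336, plus strand: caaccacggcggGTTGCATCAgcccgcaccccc
The element of Hspa5 lay 65 to 47 bases before the start, and that of Syvn1 lay 44 to 26 bases before it. In Creld2, Calr, Derl3 and the second match of Hsp90b1 the element reads in the other direction. The Asns core lay 23 to 15 bases before the start.

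All probes used for the 31 genes were well above background in the Cy5 channel on all 24 arrays, and 0 of their spots were saturated. The scanner software marked some spots as uneven or as outliers, and these were left out. Between 1.34% and 7.64% of spots per array were lost, but 150 of 744 values of these genes (20.2%), since spots of some ER genes were marked often. Of the genes, 8 kept every value and 5 lost 10 or more (Hspa5, Pdia4, Calr, Canx and Dnajc3). Where it matters the values with marked spots kept are given too. For Pdia6 and Sel1l the rule that picks a probe for each gene then chose another probe. The 8-week pair-fed, 8-week ethanol and 8-week single-binge arrays were scanned together, both 10-day groups in another scan, and the multi-binge arrays in a scan of their own. Multi-binge and scan therefore cannot be told apart, nor can the 2 pair-fed groups and their scans.

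**Figure D1:**
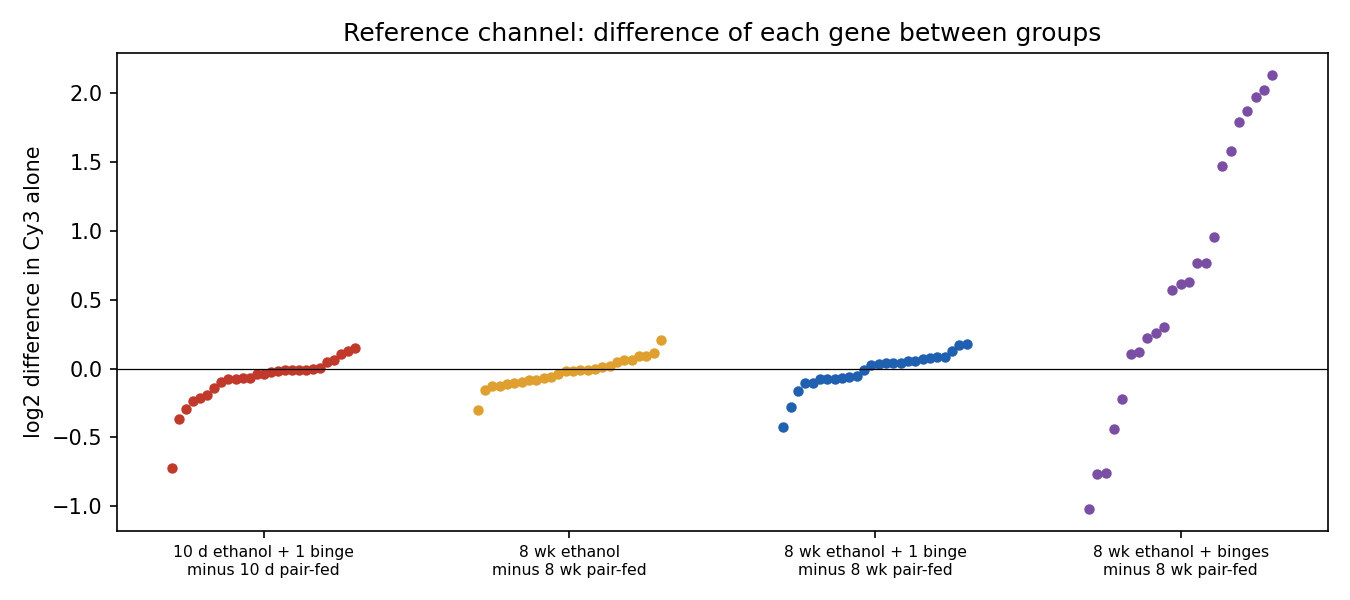
Difference of the Cy3 reference signal between groups for each of the measured genes (log2, vertical axis), for the 4 comparisons with the pair-fed group of the same duration (horizontal axis), 1 point per gene. The multi-binge points spread from -1.02 to 2.13, while those of the other comparisons lie within 1 of 0.

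By the median over the genes, the reference channel differed little between groups scanned together. It stood apart in the multi-binge group, as the plot of Cy3 differences shows. Between the 2 pair-fed groups, which were scanned apart and are not in the plot, the median size was 0.249 (log2), against 0.158 over all genes. Between the 10-day binge and its pair-fed arrays the Cy3 signal of the genes differed by a median size of 0.0657 (log2), and between the 8-week single binge and its pair-fed arrays by 0.0727. Between multi-binge and 8-week pair-fed arrays the median size was 0.768, against 0.381 over all genes, and 8 of 23 genes differed by more than 1. Manf had the highest Cy3 difference there, 2.13 (log2). The multi-binge ratios rest on this reference, and the value from Cy5 alone is set beside each call.

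After 10 days of ethanol and a binge, most of the tested folding and degradation genes of the ER rose. Of 27 genes tested, 17 rose and 0 fell in 10-day binge livers relative to 10-day pair-fed livers (limma with Benjamini-Hochberg adjustment over all genes, adjusted p under 0.05), whereas 4.3% of all genes rose. The median log2 difference was 0.93, against -0.0047 over all genes tested, and 24 of 27 differences were positive. Atf4, Herpud1, Pdia4 and Canx had too few unmarked values for a test. All 3 sensors rose, as did 3 of 4 chaperones, 4 of 5 co-chaperones and folding factors, the isomerase tested, 4 of 5 degradation genes and both translocation and export genes. None of the 5 targets of ATF4 and CHOP passed the test, nor at an unadjusted p under 0.05, and their median difference was -0.04. Of the transcription factors, Ddit3 and Xbp1 did not pass, and 1 of them had an unadjusted p under 0.05. The 10 genes that did not pass ranged from -0.27 to 1.63, with a lowest adjusted p of 0.0594. The genes were picked as members of the response and not for these values, but with earlier results of these data known.

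**Figure D2:**
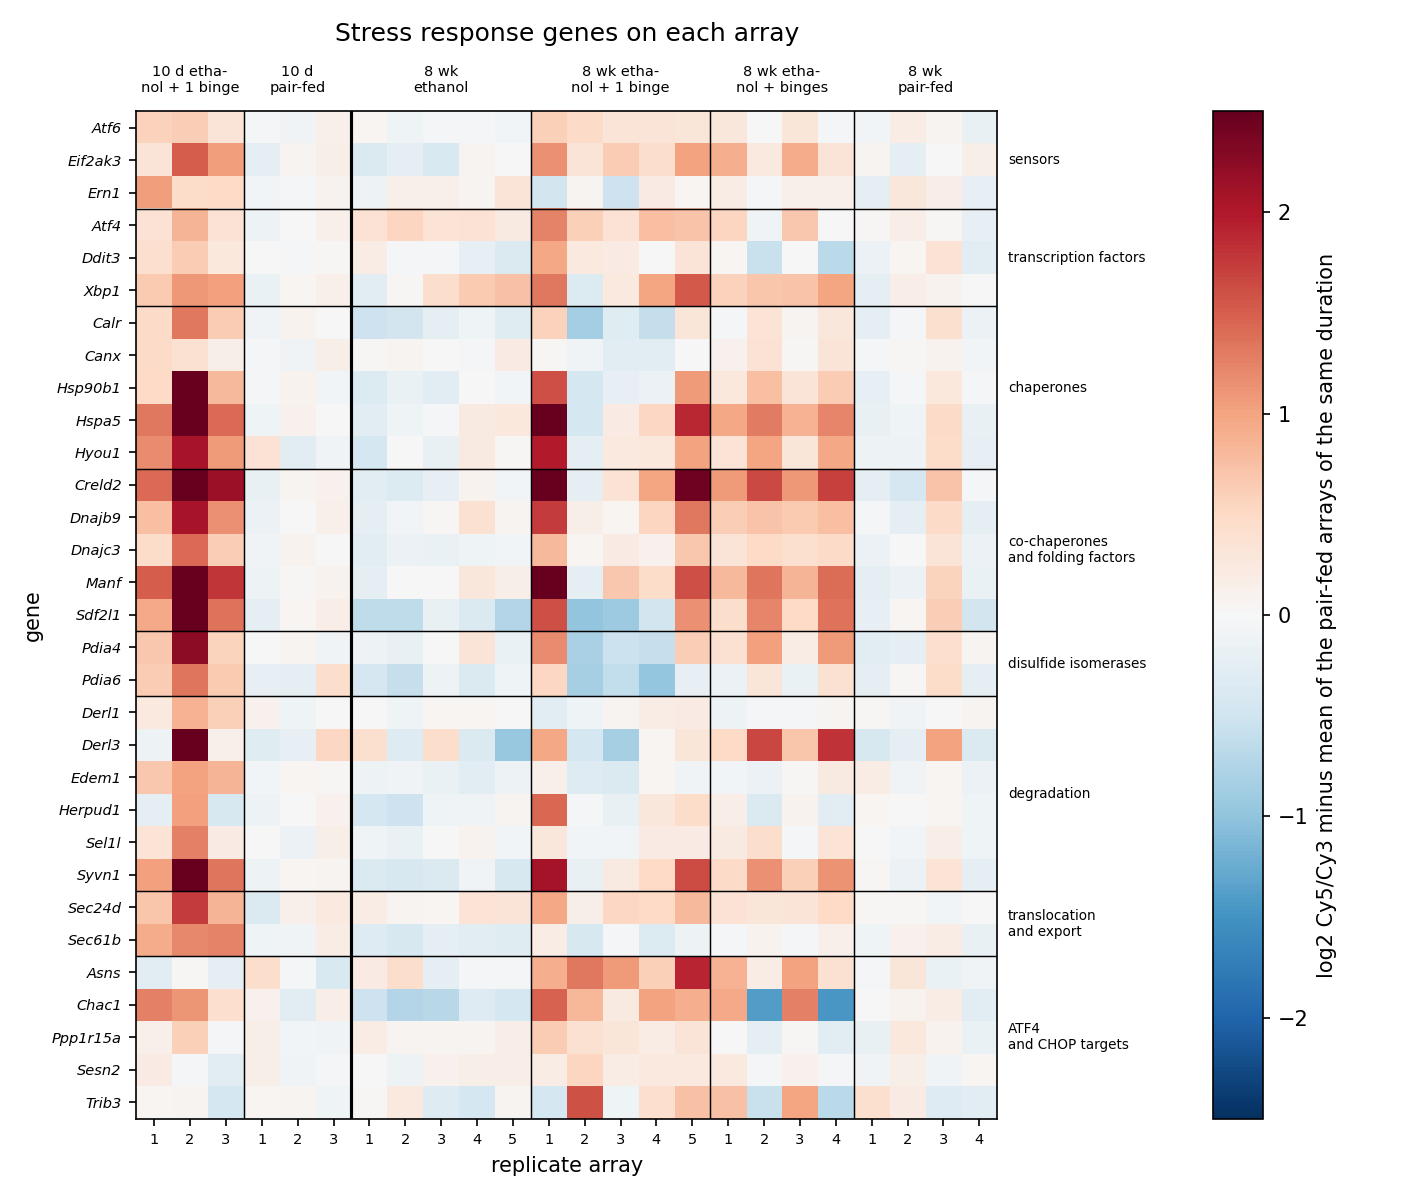
Log2 Cy5/Cy3 of each measured gene (rows, grouped by role) on each array (columns, grouped by feeding), minus the mean of the pair-fed arrays of the same duration (colour scale in log2, values beyond its ends drawn in the end colours), with marked spots kept. The ER folding and degradation rows are high on the 3 arrays of the 10-day binge, on arrays 1 and 5 of the 8-week single binge and, less so, on the multi-binge arrays.

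Among the sensors, Eif2ak3 encodes PERK. It had -0.21, 1.00 and 0.52 (log2 ratio) on the 10-day binge arrays, against -0.74, -0.45 and -0.37 on the pair-fed arrays. The groups did not overlap, and binge array 1 was closest to the pair-fed ones. The difference was 0.96 ± 0.24 (SE, n = 3 each; limma adjusted p = 0.0164). Ern1, which encodes IRE1, differed by 0.77 ± 0.20 (adjusted p = 0.0201, binge array 2 left out as marked). With slide as a fixed block it differed by 0.40, which rests on 1 array of each group. Atf6 differed by 0.50 ± 0.12 (adjusted p = 0.0127), or 0.43 with the slide block (adjusted p = 0.199).

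Hspa5 encodes BiP, the main Hsp70 chaperone of the ER, which also holds the sensors inactive. It had -0.25, 1.60 and -0.19 on the 10-day binge arrays, against -1.69 and -1.55 on the pair-fed arrays with unmarked spots. Binge array 2 was far above the others, and all 3 binge arrays were above both pair-fed arrays. The difference was 2.01 ± 0.48 (adjusted p = 0.0360), and it was 1.97 ± 0.52 with the marked spot kept (adjusted p = 0.0195). Hyou1, an exchange factor for BiP, differed by 1.44 ± 0.38 (adjusted p = 0.0198). Calr encodes calreticulin, a lectin chaperone of glycoproteins, and differed by 0.80 ± 0.19 (adjusted p = 0.0329). With marked spots kept, Calr was no longer called (0.81, adjusted p = 0.0621). Hsp90b1, the Hsp90 of the ER, had -0.39, 1.69 and -0.11 on the binge arrays, against -0.93, -0.82 and -0.94 on the pair-fed arrays, and did not pass the test (adjusted p = 0.0750).

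The highest difference of all the genes was that of Creld2, a secreted factor made under ER stress. It had -0.72, 2.05 and -0.02 on the 10-day binge arrays, against -2.32, -2.09 and -2.02 on the pair-fed arrays. The lowest binge array was well above the highest pair-fed one. The difference was 2.58 ± 0.50 (SE, n = 3 each; adjusted p = 0.00517). Manf, a secreted ER stress protein that is retained in the ER by binding BiP, had 0.28, 1.77 and 0.52, against -1.35, -1.21 and -1.16 in pair-fed livers, a difference of 2.10 ± 0.46 (adjusted p = 0.00563). Dnajb9, a J-domain co-chaperone that recruits BiP to IRE1, had 0.10 and 0.47 on binge arrays 1 and 3, against -0.80, -0.67 and -0.54 on the pair-fed arrays. These groups did not overlap either, and the difference was 0.95 ± 0.17 (adjusted p = 0.00305). With slide as a fixed block it was 1.005, which rests on 1 array of each group. Dnajc3, a co-chaperone that also inhibits PERK, differed by 0.53 ± 0.12 (adjusted p = 0.0386, 2 binge arrays with unmarked spots). Among disulfide isomerases, Pdia6 differed by 1.27 ± 0.28 (adjusted p = 0.00637). With marked spots kept, which also changed its probe, it differed by 0.87 (adjusted p = 0.0672). With marked spots kept, Pdia4 was 1.16 higher (adjusted p = 0.0932), Canx 0.34 higher (adjusted p = 0.0647) and Herpud1 0.13 higher (adjusted p = 0.886). In that setting 15 of all 31 genes rose, and the share of all measured genes that rose was not counted. Sdf2l1, a partner of the Hsp40 co-chaperones, was 1.63 higher and missed the threshold (adjusted p = 0.0594).

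Sec61b and Edem1 had the lowest adjusted p of the genes. Sec61b is a subunit of the channel through which new proteins enter the ER. It had 0.33, 0.59 and 0.62 on the 10-day binge arrays, against -0.71, -0.71 and -0.40 on the pair-fed arrays. The difference was 1.12 ± 0.13 (adjusted p = 1.14e-05). Edem1, a mannosidase-like protein that sends misfolded glycoproteins to degradation, had 0.02, 0.36 and 0.17, against -0.73, -0.62 and -0.64 in pair-fed livers. Its binge and pair-fed arrays each lay close together, with a gap between them, and the difference was 0.85 ± 0.12 (adjusted p = 0.000118). Sec24d, a cargo subunit of the vesicles that leave the ER and the gene whose promoter holds the unfolded protein response core, had 0.35, 1.43 and 0.52, against -0.69, -0.20 and -0.09. Its difference was 1.098 ± 0.21 (adjusted p = 0.00216). Sec61b, Edem1, Sec24d and Creld2 kept their calls in all 16 alternative settings.

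Of the other degradation genes, 3 rose. Syvn1, the ubiquitin ligase HRD1 of the ER membrane, had -0.23, 1.47 and 0.05 on the 10-day binge arrays, against -1.38, -1.23 and -1.18 on the pair-fed arrays, a difference of 1.69 ± 0.42 (adjusted p = 0.0133). Sel1l, its partner, differed by 0.82 ± 0.22 (adjusted p = 0.0241), and Derl1, a membrane component of the same export channel, by 0.57 ± 0.13 (adjusted p = 0.00899). Derl3 had -1.17, 1.99 and -0.93, against -1.35, -1.25 and -0.54, so it was high on binge array 2 only, and did not pass (adjusted p = 0.388). The 12 genes with several probes had the same sign on every probe. Sizes were close for Dnajb9 (0.93 to 0.95) but differed for Syvn1 (0.68 to 1.69), Sel1l (0.28 to 0.82), Calr (0.31 to 0.80), Edem1 (0.34 to 0.85) and Dnajc3 (0.14 to 0.89). For the 8-week single binge, 8 of 10 such genes had the same sign on every probe against pair-fed livers. Against the ethanol diet alone 7 of 10 did.

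The genes of the ATF4 arm were measured in the same livers. Ddit3 encodes CHOP, a transcription factor linked to cell death under lasting stress, and had 0.08, 0.29 and -0.09 on the 10-day binge arrays, against -0.33, -0.40 and -0.31 on the pair-fed arrays. The arrays did not overlap, but the difference of 0.43 ± 0.21 did not pass (adjusted p = 0.259); the Cy3 signal differed by -0.72, and Cy5 alone gave -0.30. Atf4 was unmarked on binge array 3 only, at 0.40, against -0.07, 0.05 and 0.17 in pair-fed livers. With marked spots kept, Atf4 had 0.39, 0.89 and 0.39, against -0.10, 0.04 and 0.16, a difference of 0.52 that did not pass (adjusted p = 0.106). Xbp1 had -0.20 and 0.12 on binge arrays 1 and 3, against -1.03, -0.84 and -0.76, a difference of 0.84 ± 0.37 (adjusted p = 0.218). Among the targets, Trib3, a pseudokinase that restrains insulin signalling, had 0.25, 0.26 and -0.24, against 0.26, 0.26 and 0.08. Asns, asparagine synthetase, had -0.29 and -0.28 on binge arrays 1 and 3, against 0.43, -0.08 and -0.41. Neither of these 2 genes' groups separated. Chac1, a glutathione-degrading enzyme, had 0.91, 0.74 and 0.06, against -0.25, -0.63 and -0.19. Every binge array of Chac1 was above every pair-fed array, and it was higher on both slides that held both groups (by 0.25 and 1.37), but the difference of 0.93 ± 0.48 did not pass (adjusted p = 0.301). Ppp1r15a, a phosphatase subunit that reverses eIF2 alpha phosphorylation, was 0.21 higher and Sesn2 differed by -0.04, both with overlapping groups.

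Binge array 2 had the highest value of most of these genes. Its median over 20 folding, degradation and export genes was 1.91 (log2, relative to the mean of the 10-day pair-fed arrays), against 0.68 and 0.83 on binge arrays 1 and 3, with marked spots kept. Of the 17 genes that rose, 14 had a value on it, and without it 5 of these passed: Sec61b, Edem1, Hspa5, Creld2 and Sec24d. The other 3 (Ern1, Dnajb9 and Dnajc3) had no unmarked value there, so leaving it out removed none of their data; Ern1 and Dnajb9 passed in that fit and Dnajc3 did not (adjusted p = 0.061). Without pair-fed array 1 or 2 the count was 9 each. Within the slides that held both groups, Sec61b was 1.02 and 1.30 higher in the binge livers, and Edem1 0.82 and 0.98 higher. Creld2 was 2.00 and 4.14 higher. With slide as a fixed block 10 of the 17 passed, and Atf6, Ern1, Calr, Hyou1, Dnajb9, Dnajc3 and Sel1l did not. With this block the differences of Hyou1 (1.74), Calr (0.91), Dnajb9 (1.005), Dnajc3 (0.55) and Sel1l (0.84) were no smaller than without it, while those of Ern1 (0.40) and Atf6 (0.43) were smaller. That of Hspa5 was also smaller, 1.36. The block compares the groups only on the 2 slides that held both. For Hspa5, Dnajb9, Dnajc3 and Ern1 only 1 slide held unmarked values of both groups. Their differences with this block are those of 1 array against 1, so passing or not says little for them.

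**Figure D3:**
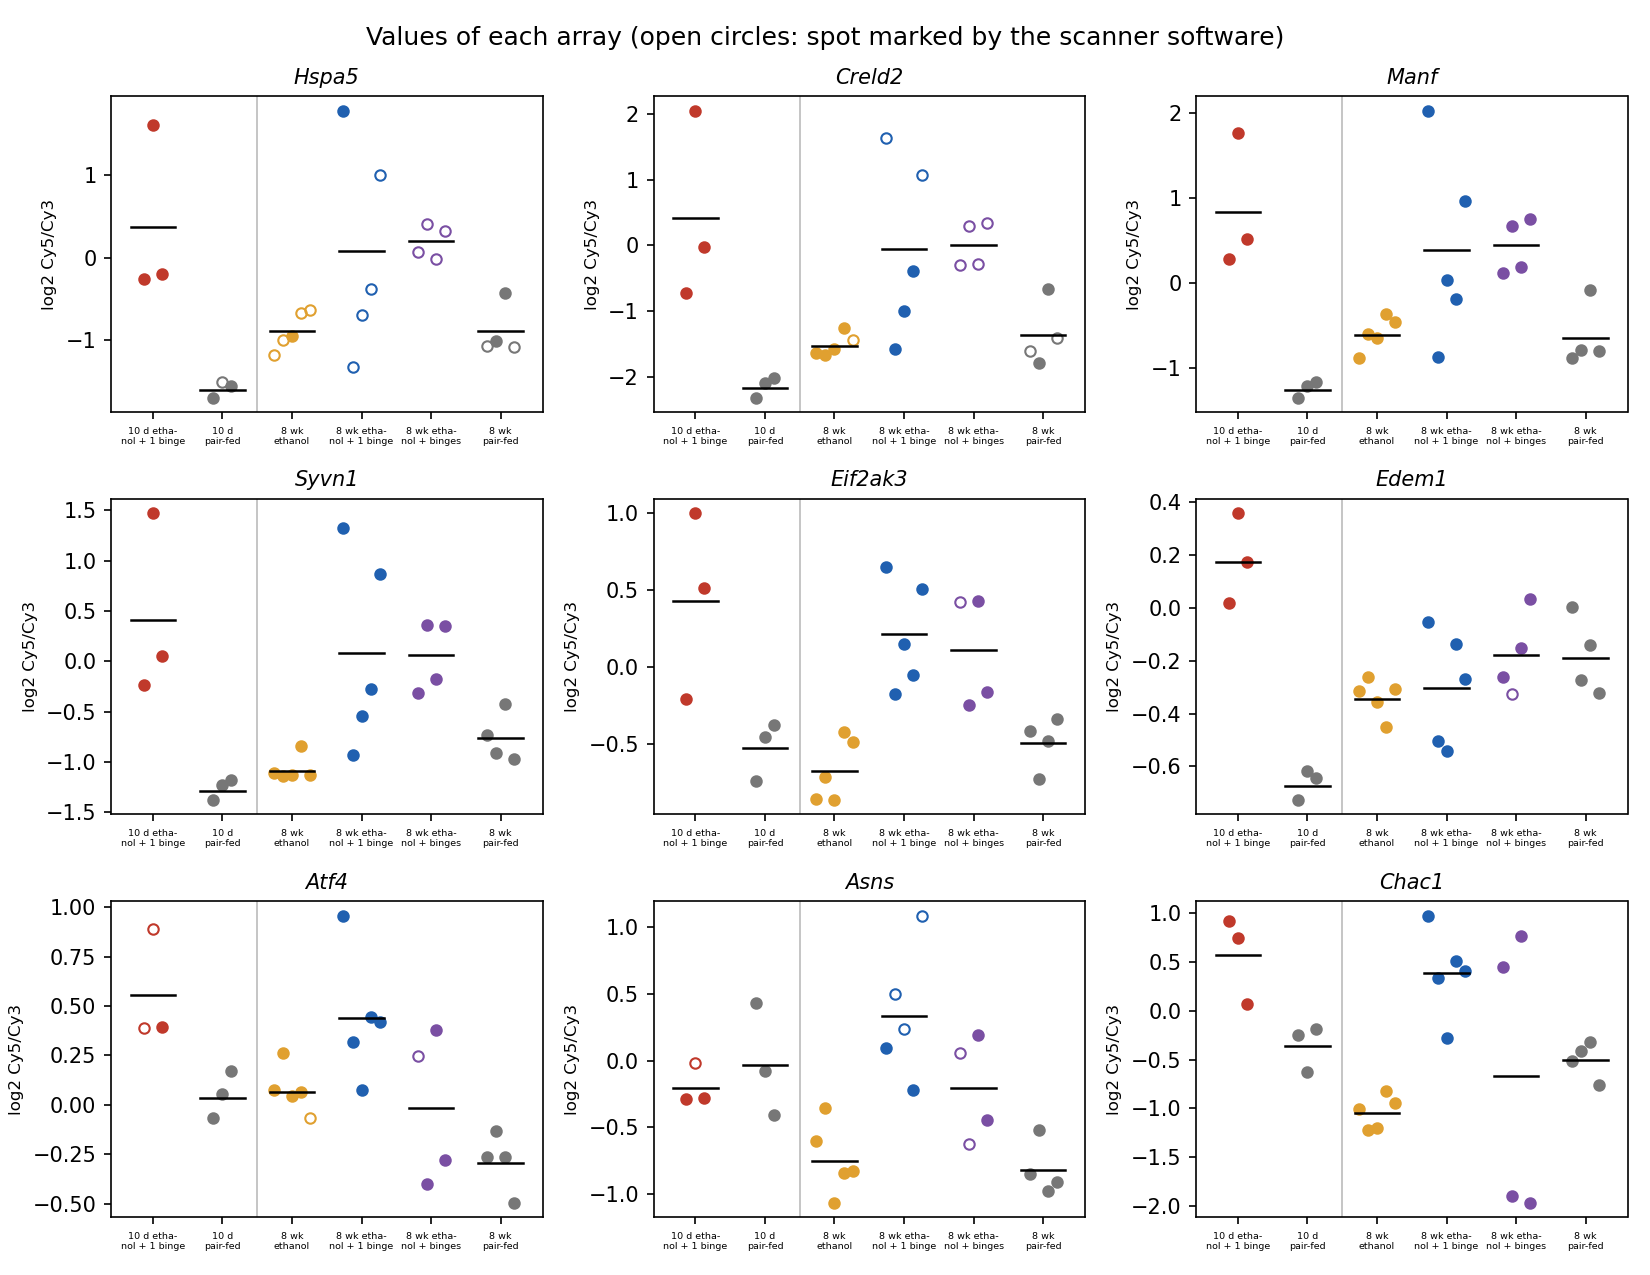
Log2 Cy5/Cy3 of 9 genes on every array, by feeding group, with each binge or ethanol group left of its pair-fed group, open circles for spots the scanner software marked, and a bar at the mean of all arrays. Hspa5, Creld2, Manf and Syvn1 are above the pair-fed arrays on all 3 arrays of the 10-day binge and are highest on arrays 1 and 5 of the 8-week single binge, while Asns is above its pair-fed arrays on all 5 of those.

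No gene of the list passed the test after 8 weeks of ethanol diet alone. Of 26 genes tested, 0 passed the limma test in 8-week ethanol livers relative to 8-week pair-fed livers, and 0.153% of all genes were called in either direction. At an unadjusted p under 0.05, 1 was higher and 1 lower. The differences ranged from -0.57 to 0.40 with a median of -0.08, and the lowest adjusted p was 0.450. Hspa5, with marked spots kept, had -1.18, -0.998, -0.93, -0.66 and -0.64 in ethanol livers, against -1.07, -1.003, -0.41 and -1.08 in pair-fed livers. The groups overlapped throughout. Ddit3 had 0.25, 0.02, 0.01, -0.17 and -0.30, against -0.10, 0.10, 0.39 and -0.21. Xbp1 had -1.11, -0.78, -0.40, -0.18 and -0.06, against -1.07, -0.67, -0.75 and -0.82. The ethanol arrays of Xbp1 spread more widely than the pair-fed ones. Atf4 had 0.08, 0.26, 0.04 and 0.07 on ethanol arrays 1 to 4, against -0.26, -0.13, -0.27 and -0.50. These ethanol arrays were all above every pair-fed array, but the difference of 0.40 did not pass (adjusted p = 0.572). Asns had -0.60, -0.36, -1.06, -0.84 and -0.82, against -0.85, -0.52, -0.98 and -0.91. Trib3 had -0.27, -0.05, -0.62, -0.74 and -0.24, against 0.09, -0.09, -0.62 and -0.59. Asns and Trib3 overlapped between the groups. The same pair-fed arrays serve all 8-week comparisons, so those comparisons are not independent.

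After a binge on top of 8 weeks of ethanol, few genes of the list passed the test: Atf4, Asns, Eif2ak3 and Sec24d. Of 26 genes tested, 4 rose and 0 fell in 8-week single-binge livers relative to 8-week pair-fed livers, and 12 had an unadjusted p under 0.05 on the higher side; 7.56% of all genes rose. The median difference was 0.32, against 0.02 over all genes, and 22 of 26 differences were positive. With marked spots kept, Atf6 (0.41, adjusted p = 0.00351) and Ppp1r15a (0.36, adjusted p = 0.0343) passed the same test as well. Atf4, the transcription factor of the integrated stress response, had 0.96, 0.32, 0.07, 0.45 and 0.42 in single-binge livers, against -0.26, -0.13, -0.27 and -0.50 in pair-fed livers. Every single-binge array was above every pair-fed array. The difference was 0.73 ± 0.16 (SE, n = 5 and 4; limma adjusted p = 0.00249), and it kept its call in all 19 alternative settings.

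Asns is an ATF4 target whose promoter holds the C/EBP-ATF core. Chac1 and Herpud1 hold the same core and did not pass in single-binge relative to pair-fed livers. Asns had 0.09 and -0.22 on single-binge arrays 1 and 4, against -0.85, -0.52, -0.98 and -0.91 on the pair-fed arrays. Its other 3 spots were marked. The difference was 0.75 ± 0.22 (adjusted p = 0.0278, n = 2 and 4). With marked spots kept, the single-binge arrays had 0.08, 0.50, 0.24, -0.22 and 1.08, and the difference was 1.16 ± 0.21 (adjusted p = 0.000412). Eif2ak3 had 0.65, -0.17, 0.15, -0.05 and 0.51, against -0.41, -0.73, -0.48 and -0.34, a difference of 0.71 ± 0.20 (adjusted p = 0.0164). Sec24d had 0.56, -0.25, 0.12, 0.10 and 0.40, against -0.37, -0.37, -0.47 and -0.40, a difference of 0.59 ± 0.17 (adjusted p = 0.0223). Neither Eif2ak3 nor Sec24d overlapped between the groups, though single-binge array 2 came close to the pair-fed values. The call of Sec24d was lost in 5 of 19 alternative settings, among them without single-binge array 1 or 5. That of Asns was lost in 5 of 17 and that of Eif2ak3 in 1 of 19. Within slides, Atf4, Eif2ak3 and Sec24d were higher in the single-binge livers on 4 of 4 slides each.

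The chaperones split the single-binge arrays. Hspa5, with marked spots kept, had 1.78, -1.32, -0.69, -0.38 and 1.00, against -1.07, -1.003, -0.41 and -1.08 in pair-fed livers. Arrays 1 and 5 were far above every pair-fed array, array 4 was just above the highest of them, and array 2 was below them all. The difference of 0.97 ± 0.43 did not pass (adjusted p = 0.131). Creld2, with marked spots kept, had 1.63, -1.59, -0.997, -0.37 and 1.07, against -1.60, -1.79, -0.66 and -1.41, and a difference of 1.32 (adjusted p = 0.0755). Arrays 1, 4 and 5 of Creld2 were above every pair-fed array, and array 2 was among them. Without marked spots it was 0.24, since arrays 1 and 5 were among those left out. Manf had 2.03, -0.87, 0.03, -0.19 and 0.97, against -0.89, -0.79, -0.08 and -0.80 (difference 1.04, adjusted p = 0.0644). Over 20 folding, degradation and export genes, the medians of single-binge arrays 1 to 5 were 1.07, -0.23, -0.04, 0.14 and 0.65 (log2, relative to the pair-fed mean), whereas over Atf4, Ddit3 and their 5 targets they were 0.91, 0.60, 0.22, 0.43 and 0.71. The count of genes that rose was 8 without single-binge array 2, and 2 without single-binge array 1 or without pair-fed array 3.

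**Figure D4:**
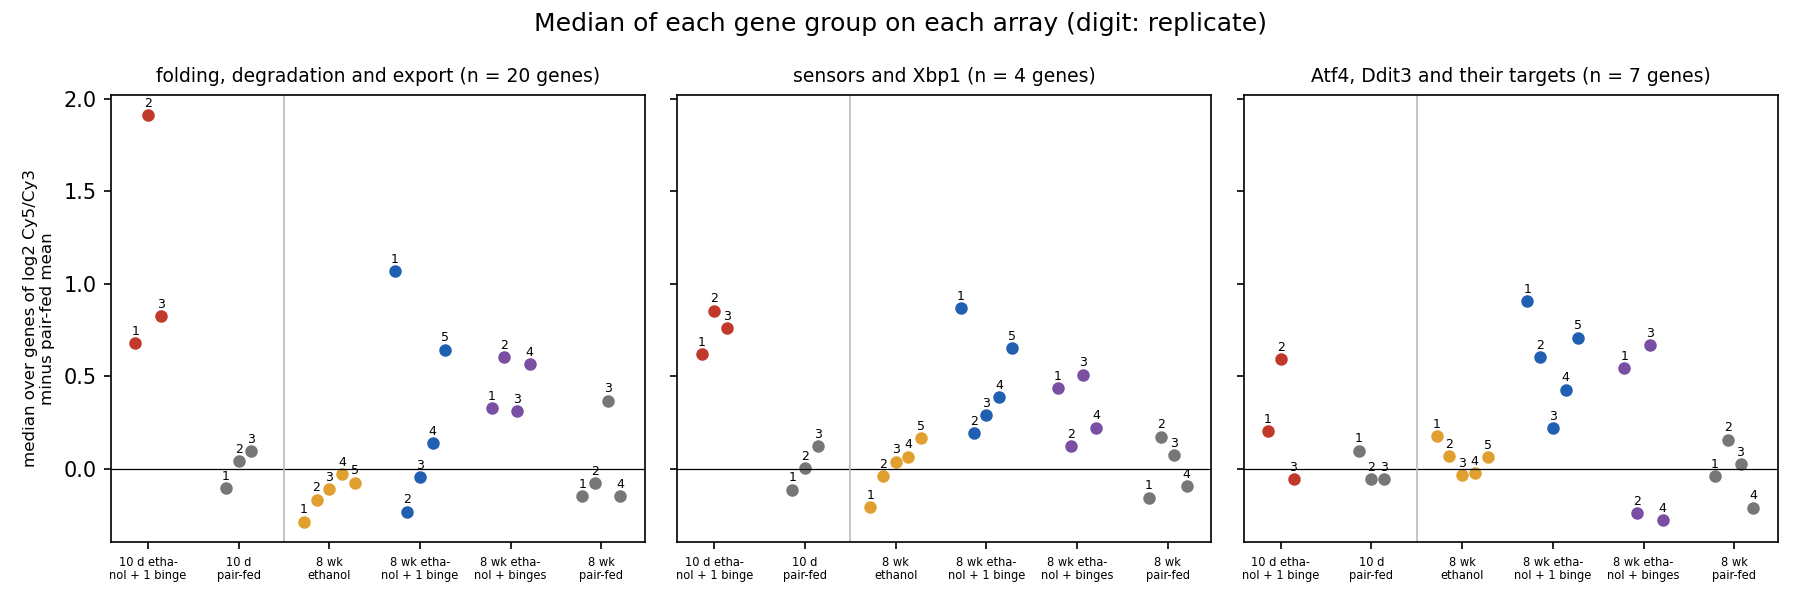
Median over 3 sets of genes on each array (log2 Cy5/Cy3 minus the mean of the pair-fed arrays of the same duration, marked spots kept), by feeding group: 20 folding, degradation and export genes, the 3 sensors with Xbp1, and Atf4, Ddit3 and their 5 targets. The first set lies at 0.68 to 1.91 on the 10-day binge arrays and at -0.23 to 1.07 on the 8-week single-binge arrays, and the last set at -0.05 to 0.59 and at 0.22 to 0.91.

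Other readouts of the same livers did not pass. Ddit3 had 1.01, 0.29, 0.26, 0.03 and 0.36 in 8-week single-binge livers, against -0.10, 0.10, 0.39 and -0.21 in pair-fed livers. Xbp1 had -1.16, -0.59, 0.15 and 0.71 on arrays 2 to 5, against -1.07, -0.67, -0.75 and -0.82. Trib3 had -0.74, 1.29, -0.42, 0.12 and 0.42, against 0.09, -0.09, -0.62 and -0.59. All of these overlapped between the groups. Trib3 differed by 0.44 on the probe used and by 0.94 on its other probe, which was not tested on its own. Of the 5 targets of ATF4 and CHOP, all had positive differences, with a median of 0.44.

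Set against the ethanol diet alone, the single binge gave 5 genes that rose and 0 that fell among 26 tested, while 8.04% of all genes rose. Chac1 had 0.97, 0.34, -0.28, 0.51 and 0.41 in single-binge livers, against -1.01, -1.22, -1.20, -0.83 and -0.94 in livers of the ethanol diet alone. The groups were far apart, and the difference was 1.43 ± 0.37 (SE, n = 5 each; adjusted p = 0.00953). Eif2ak3 had -0.85, -0.71, -0.86, -0.42 and -0.48 in ethanol livers and was 0.88 ± 0.19 higher with the binge (adjusted p = 0.00189). Atf6 had 0.32, 0.19, 0.03, 0.03 and 0.02 in single-binge livers, against -0.36, -0.34 and -0.33 on ethanol arrays 2 to 4, the other 2 being marked, a difference of 0.47 ± 0.11 (adjusted p = 0.00418), or 0.43 with slide as a fixed block (adjusted p = 0.0524). Syvn1 had 1.32, -0.93, -0.54, -0.27 and 0.86, against -1.11, -1.14, -1.13, -0.84 and -1.13, so array 2 reached the ethanol range, with a difference of 1.16 ± 0.32 (adjusted p = 0.0148). Asns was 0.68 higher (adjusted p = 0.0405), and 1.09 higher with marked spots kept (adjusted p = 0.000409). With marked spots kept, Creld2 (1.48, adjusted p = 0.032) and Dnajc3 (0.53, adjusted p = 0.0166) passed the same limma test as well. Chac1 and Eif2ak3 kept their calls in all 20 alternative settings. The call of Syvn1 was lost in 2 of 20, without single-binge array 1 and without array 5. That of Atf6 was lost in 3 of 20 and that of Asns in 5 of 18. Atf4 (0.33 higher) and Sec24d (0.39 higher), which rose relative to pair-fed livers, did not pass relative to the ethanol diet alone.

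The ER genes were compared between the feeding durations by the difference of the 2 binge effects, the 8-week effect minus the 10-day effect. Each binge effect here is that of ethanol diet plus binge against pair-fed feeding. No group had 10 days of ethanol diet without a binge, so diet and binge cannot be told apart in the 10-day effect. Of 24 genes tested, 4 fell and 0 rose, while 2.4% of all genes fell, and 20 of 24 values were negative (median -0.66, against 0.02 over all genes). Sec61b had the lowest adjusted p: its binge effect was -0.15 after 8 weeks, against 1.12 after 10 days, a difference of -1.26 ± 0.17 (adjusted p = 8.22e-05). On the arrays of the 8-week single binge Sec61b had 0.30, -0.28, 0.06, -0.25 and -0.02, against -0.01, 0.22, 0.28 and -0.06 in pair-fed livers. Edem1 had -0.06, -0.50, -0.54, -0.14 and -0.27 there, against 0.00, -0.27, -0.14 and -0.32, and its effects differed by -0.96 ± 0.16 (adjusted p = 0.000738). Both genes overlapped between the 8-week groups and not between the 10-day groups. Pdia6 differed by -1.53 ± 0.36 (adjusted p = 0.0181) and Ern1 by -0.90 ± 0.25 (adjusted p = 0.0481). With slide as a fixed block Pdia6 differed by -1.75 (adjusted p = 0.0539) and Ern1 by -0.47, and neither passed. With this block the 10-day part of Ern1 rests on 1 array of each group. The call of Pdia6 was lost in 5 of 25 alternative settings and that of Ern1 in 15 of 23. Asns went the other way, by 1.02 (adjusted p = 0.107), and passed with marked spots kept (1.33, adjusted p = 0.0228). The feeding durations were scanned apart, but each binge effect was taken within its own scan.

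**Figure D5:**
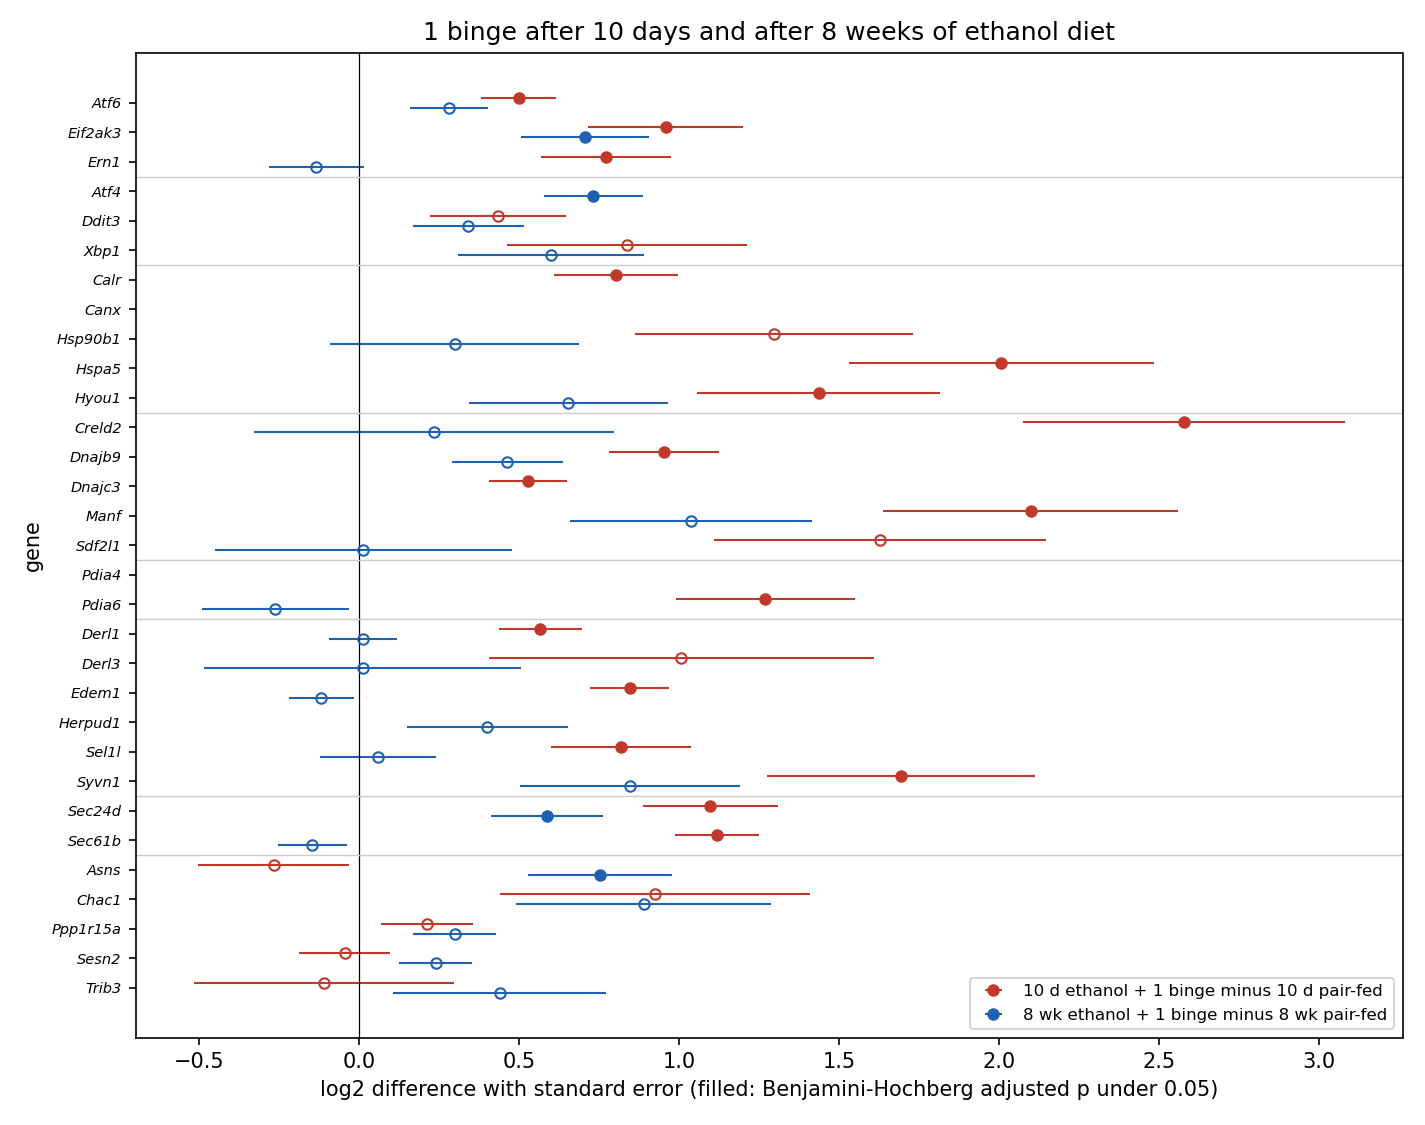
Binge minus pair-fed difference of each tested gene (log2, with its SE), for the 10-day binge in red and the 8-week single binge in blue, filled where called, with no point where the gene was not tested. Sec61b, Edem1 and Pdia6 lie well above 0 after 10 days and at or below 0 after 8 weeks, and Asns lies the other way round.

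The pair-fed livers themselves differed between the durations in part of the list. The median log2 difference was 0.26, against 0.0034 over all genes, and 19 of 26 differences were positive. The pair-fed values are part of both binge effects, so these differences enter the difference of the binge effects above. Of 26 genes tested, 2 rose in 8-week relative to 10-day pair-fed livers, while 1.05% of all genes did. They were Sec61b (-0.01, 0.22, 0.28 and -0.06, against -0.71, -0.71 and -0.40; difference 0.71, adjusted p = 0.00681) and Edem1 (0.00, -0.27, -0.14 and -0.32, against -0.73, -0.62 and -0.64; difference 0.48, adjusted p = 0.0364). The call of Sec61b was lost in 1 of 16 alternative settings and that of Edem1 in 11 of 16. The Cy3 signal of the genes also differed between these groups, by a median size of 0.249 (log2). Duration and scan cannot be told apart here.

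With repeated binges the reference channel stood apart, and the values below carry that limit. Of 23 genes tested, 1 rose in multi-binge livers relative to 8-week pair-fed livers, while 7.99% of all genes rose: Asns, with 0.19 and -0.45 on the multi-binge arrays that were not marked, against -0.85, -0.52, -0.98 and -0.91. The difference was 0.69 (adjusted p = 0.0376), but -0.25 in Cy5 alone. Multi-binge arrays 1 and 3 resembled each other, as did 2 and 4: over all genes the SD of their difference was 0.226 and 0.189, against up to 0.313 for the other multi-binge pairs and 0.212 to 0.453 for the 32 pairs within other groups. Averaged in these pairs, an alternative chosen after seeing the data, 0 genes rose against pair-fed livers by limma. Chac1 had 0.45, -1.90, 0.77 and -1.96 on multi-binge arrays 1 to 4, and Trib3 had 0.44, -0.85, 0.69 and -0.99. Hspa5, with marked spots kept, had 0.07, 0.41, -0.01 and 0.33, and Xbp1 -0.25, -0.15, -0.13 and 0.16. Arrays 2 and 4 were thus higher in Hspa5 and far lower in Chac1 and Trib3 than arrays 1 and 3.

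Relative to the ethanol diet alone, 6 of 23 genes rose in multi-binge livers, while 10.1% of all genes rose. Syvn1 had -0.31, 0.36, -0.17 and 0.35, a difference of 1.13 (adjusted p = 0.0194), and 1.75 in Cy5 alone. Its call was lost in 4 of 19 alternative settings, among them without multi-binge array 2 or 4, and its other probe differed by 0.25. Sdf2l1 had -0.04, 0.72, 0.02 and 0.88, against -1.09, -1.09, -0.66, -0.83 and -1.18, a difference of 1.37 (adjusted p = 0.0223), and 1.75 in Cy5 alone. The call of Sdf2l1 was lost in 3 of 19 alternative settings: without multi-binge array 2, without array 4 and averaged in pairs. Eif2ak3 had -0.25, 0.43 and -0.16 on arrays 2 to 4 and was 0.67 higher (adjusted p = 0.0266), and 0.76 in Cy5 alone. Its call was lost in 4 of 19 alternative settings. Manf was 1.02 higher (adjusted p = 0.0495), and 3.25 higher in Cy5 alone; its call was lost in 16 of 19 alternative settings. Asns was 0.61 higher (adjusted p = 0.0475), with the opposite sign in Cy5 alone (-0.26), and its call was lost in 12 of 17. Sec61b had 0.05, 0.18, 0.08 and 0.25, was 0.33 higher (adjusted p = 0.0272), and was 0.41 lower in Cy5 alone. Its call was lost in 9 of 19 alternative settings. Averaged in pairs, 1 gene rose.

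Relative to the single binge, 5 of 23 genes fell in multi-binge livers, while 17.5% of all genes fell. They were Ppp1r15a, with 0.02, -0.21, 0.08 and -0.23 against 0.68, 0.42, 0.33, 0.22 and 0.36 (difference -0.49, adjusted p = 0.00384), Ddit3 (-0.64, adjusted p = 0.00791), Atf4 (-0.54, adjusted p = 0.0208), Atf6 (-0.28, adjusted p = 0.0390) and Chac1 (-1.05, adjusted p = 0.0493). Ddit3 had 0.10, -0.53, 0.04 and -0.63 on the multi-binge arrays, Atf4 had -0.40, 0.38 and -0.28 on arrays 2 to 4, and Atf6 had -0.01, -0.30, 0.02 and -0.33. The multi-binge values of Ddit3 split by array pair as those of Chac1 did. In Cy5 alone the differences were -0.57 for Ppp1r15a, -0.12 for Atf6 and -0.78 for Chac1, while Ddit3 was 0.28 and Atf4 1.05 higher instead. The call of Ppp1r15a was kept in all 19 alternative settings, while that of Chac1 was lost in 14, that of Atf6 in 8, that of Atf4 in 7 and that of Ddit3 in 1. Averaged in pairs, 2 genes fell.

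Other genes of the same pathways, from lists drawn up with earlier results of these data known, were counted in the same fit. Of the ER folding and degradation genes outside the list, 12 rose and 1 fell among 31 tested in 10-day binge livers relative to their pair-fed livers, including Derl2 (0.80), Ssr3 (1.14) and Edem3 (0.83, log2); 4.3% of all genes rose there and 2.89% fell. After the 8-week single binge 5 rose and 3 fell among 32, including Creb3l2 (0.84), Fkbp2 (-0.40) and Sil1 (-0.26), where 7.56% of all genes rose and 8.71% fell. Of the integrated stress response genes outside the list, 3 rose and 1 fell among 30 after the 10-day binge, including Nars (0.54), Phgdh (0.53) and Eif2ak1 (-0.49). After the 8-week single binge 9 rose and 1 fell among 30 relative to pair-fed livers: Psph, the last enzyme of serine synthesis, was 1.73 higher, Sars, a seryl-tRNA synthetase, 0.93 higher, and Ddit4, an inhibitor of mTORC1, 1.82 higher. Relative to the ethanol diet alone 12 rose and 1 fell among 30, where 8.04% of all genes rose and 8.42% fell. In the difference of the binge effects, 8 weeks minus 10 days, 6 of 31 of these ER genes fell and 0 rose, including Derl2 (-1.11), Erp44 (-0.78) and Ero1b (-1.09). Of 29 integrated stress response genes 3 rose there and 0 fell: Ddit4 (2.07), Vldlr (0.93) and Psph (1.099). Over all genes 0.946% rose and 2.4% fell in that contrast. The ethanol diet alone moved 0 of 32 and 0 of 30 of these genes by limma, and at an unadjusted p under 0.05, 0 of them rose while 3 and 1 fell.

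All 6 hepatocyte markers were above background on every array. Of these, Ttr rose by 0.84 in 10-day binge livers (adjusted p = 0.0404), and its binge effect differed by -1.31 between the durations (adjusted p = 0.0222); 0 of 6 passed after the 8-week single binge relative to pair-fed livers. Markers of other cells moved in the binge groups in places. In 10-day binge livers relative to pair-fed livers, 3 of 6 stellate markers (Rgs5, Lrat and Dcn) and 2 of 6 endothelial markers (Lyve1 and Clec4g) rose, while 0 of 7 neutrophil, 0 of 7 macrophage and 0 of 7 plasma and B cell markers passed, and 4.3% of all genes rose. The mean stellate ratio ranged from 0.088 to 0.18 on the binge arrays and from -0.50 to -0.15 on the pair-fed arrays, and the mean endothelial ratio from -0.04 to 0.10 and from -0.54 to -0.30. In 8-week single-binge livers 2 of 7 neutrophil markers rose (S100a9 by 1.12 and S100a8 by 0.61), 2 of 6 macrophage markers fell, and 0 of 7 plasma and B cell markers passed. Of 6 endothelial markers, Lyve1 (2.29) and Cdh5 (0.39) rose and Clec4g (-0.79) and Kdr (-0.66) fell, and of 6 stellate markers Reln (-0.67) and Rgs5 (-0.30) fell. Over all genes 7.56% rose and 8.71% fell in that comparison. In multi-binge livers relative to 8-week pair-fed livers, 2 of 7 neutrophil and 2 of 6 endothelial markers rose, and 3 and 1 of them fell, while 7.99% of all genes rose and 12.6% fell. Csf1r (-0.40, 1 of 6 macrophage markers), Cd79a (-1.21, 1 of 7 plasma and B cell markers) and Reln (-0.69, 1 of 5 stellate markers) fell there too. In the difference of the binge effects, Clec4g (-1.53) and Kdr (-1.06) of 6 endothelial markers fell, as did Rgs5 (-0.83) and Reln (-0.79) of 6 stellate markers. Cd5l (-1.15) of 6 macrophage markers fell too, and 0 of 7 neutrophil and 0 of 7 plasma and B cell markers passed. Over all genes 2.4% fell and 0.946% rose in that contrast. Of the 6 endothelial markers 3 had positive values, 1 of them at an unadjusted limma p under 0.05. Of the 6 stellate and 6 macrophage markers 1 each was positive. Sec61b, Edem1, Pdia6 and Ern1 of the list fell in the same contrast. Between the pair-fed groups, 8 weeks minus 10 days, Reln (0.64) and Rgs5 (0.45) rose and Camp (-0.78), 1 of 7 neutrophil markers, fell; 1.05% of all genes rose and 0.463% fell. The part of these cells in the results for the ER genes was not tested.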

How the data were processed

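The deposited scanner files hold spot intensity values in the Cy5 and Cy3 channels, and log10 ratios of processed Cy5 over Cy3, made with Agilent Feature Extraction 11.5.1.1 per the submitters' processing notes. The deposited value table holds log2 ratios of the same signals, as the scanner values bear out (column medians -0.088 to 0.0736). Cy5 holds the liver RNA and Cy3 the reference on every array, per the labels.

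Median signals were background-corrected (normexp, offset 50) and loess-normalized within arrays with limma 3.58.1 in R 4.3.3. Spots that the software called non-uniform or population outliers were left out, and replicate spots averaged. Probes had to be well above background in the Cy5 channel of 3 or more arrays (36618 of 41174). Names came from RefSeq accessions (24375 probes with 1 symbol). The brightest probe with 2 or more unmarked values in every group stands for a gene, or the brightest probe where none had these. A limma fit of 6 group means (eBayes, 24 arrays) tested genes with 2 or more values in each group, with Benjamini-Hochberg adjustment over all genes tested and a threshold of 0.05. The script was tested on simulated data. The number of arrays limits the precision.

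The genes and lists were chosen with earlier results of these data known. Values of every array were given for Hspa5, Ddit3, Atf4, Xbp1, Trib3 and Asns and for the 4 called genes with the lowest adjusted p of each comparison; a few other genes were given so after their values were seen. Of other pathway genes, the 3 with the lowest adjusted p were named. Alternatives covered background correction, centring, the reference channel, marked spots, the dim-probe filter, the probe rule, the deposited values, slide, replicate number and each array left out. Deviations of same-numbered arrays of different groups correlated by r from -0.253 to 0.361, above 0.1 in 13 of 31 pairs but in no comparison in every pair, so the numbers were not taken to pair the arrays.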

Additional observations from a re-analysis of the deposited data

Results flagged for a closer look

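The effect of ethanol diet plus binge against pair-fed feeding differed between the durations, by the test of that difference, in some genes. These were Sec61b (-1.26), Edem1 (-0.96), Pdia6 (-1.53) and Ern1 (-0.90, log2, 8 weeks minus 10 days). With slide as a fixed block, Pdia6 (-1.75, adjusted p = 0.0539) and Ern1 (-0.47) no longer passed. With this block the 10-day part of Ern1 rests on 1 array of each group.

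Of 80 sets of 4 or 5 values of 1 gene in 1 group, 8 had an array far from the others, where chance gives about 1 in 20 for a single set; the genes share arrays, so the sets are not independent. In 8-week single-binge livers, Sel1l was high on array 1 (0.54, next -0.03) and Sesn2, a stress-induced inhibitor of mTORC1, on array 2 (0.46, next 0.14). In livers of the 8-week ethanol diet alone, Atf4 was high on array 2 (0.26, next 0.08), Syvn1 was high on array 4 (-0.84, next -1.11) and Derl1 was low on array 2 (-0.29, next -0.18). In 8-week pair-fed livers, array 3 was high for Hyou1 (0.23, next -0.35), Manf (-0.0774, next -0.79) and Derl3 (0.0177, next -1.22), 3 genes of the ER.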

How the results depend on the processing

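Over 44 calls of single genes, 786 alternative values were computed: 578 kept direction and call, 203 kept direction only and 5 reversed. All 5 reversals were multi-binge values in Cy5 alone, where the Cy3 reference is not used: Asns -0.25 against pair-fed and -0.26 against ethanol alone, Sec61b -0.41 against ethanol alone, and Atf4 1.05 and Ddit3 0.28 against the single binge. The 17 genes that rose after the 10-day binge became 9 with median centring, 5 in Cy5 alone, 10 with slide as a fixed block, and 7 to 16 without 1 array. The 4 of the 8-week single binge became 2 in Cy5 alone and 2 to 8 without 1 array; the 5 against ethanol alone became 3 and 3 to 9. For multi-binge livers against pair-fed livers, the count of 1 became 2 with the scanner software's ratio or median centring, 15 in Cy5 alone, 3 with the deposited values, 0 with arrays averaged in pairs, and 0 to 1 without 1 array. The 6 against ethanol alone became 17 in Cy5 alone, 3 with the mean over probes, 1 averaged in pairs and 1 to 5 without 1 array. The 5 that fell against the single binge became 15 called in Cy5 alone, 3 with the mean over probes or slide as a random block, 2 averaged in pairs and 2 to 5 without 1 array. Between pair-fed groups the 2 became 1 with the software ratio, median centring, Cy5 alone, the mean over probes or the deposited values, and 0 to 2 without 1 array. The 4 of the difference between binge effects became 2 with median centring, 1 in Cy5 alone and 2 to 5 without 1 array. The causes were not tested. With the replicate block, the counts were 15, 0, 4, 1, 6, 5, 3, 3 and 4 in the order 10-day binge, ethanol alone, single binge, multi-binge (all against pair-fed), single and multi-binge against ethanol alone, multi-binge against single binge, pair-fed 8 weeks against 10 days, and the difference of effects. Slide as a fixed block could not be fitted for multi-binge comparisons or between pair-fed groups. The share of all genes called was counted in the main fit only. Counts under the alternatives, here and in the results, therefore show how the calls depend on the setting, and not whether these genes stand out from all genes. Without array 1 of the 10-day binge, singled out with earlier results known, 16 genes rose; arrays averaged in pairs were added after seeing the data.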
